A study of Mus musculus with 8 samples.

Results

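The cytosolic ribosomal protein genes of the mouse colonic epithelium are described here over a day. They were chosen by symbol, as the genes named Rpl or Rps followed by a digit together with Rplp0, Rplp1, Rplp2 and Rpsa, and they make up 83 of the 14247 genes measured. The 10 Rps6k kinase genes, which share only the first letters of the name, and 3 genes whose symbol holds "-ps" were left out. Of the 83, 77 encode core subunits of the ribosome (46 of the large and 31 of the small subunit), 5 are paralogues of such genes (Rpl7l1, Rpl22l1, Rpl36al, Rps27l and Rps27rt), and Rps19bp1 encodes a nucleolar protein that binds Rps19 and is no ribosome subunit. All 83 had a mean of at least 10 normalised counts and entered every test.

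Bulk RNA sequencing measured epithelial cells of the colon from wild-type mice at zeitgeber time (ZT) 0, 6, 12 and 18, in hours after lights on. The methods of the study give C57BL/6 mice of 2 to 4 months, kept in a 12 h light and 12 h dark cycle, whose colonic crypts were released with EDTA and scraping, and name no treatment for these mice. Each time point had 2 libraries, called here ZT0-1, ZT0-2 and so on after their labels. Whether the libraries of a time point came from separate mice is not given by their labels, and the study describes more mice in a group than there are libraries here, so that p-values measure the spread between these libraries, which may be technical.

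Each ribosome joins a large subunit, in which peptide bonds form, to a small subunit, in which the messenger RNA is read, and each core protein is present in 1 copy per ribosome, apart from the acidic stalk proteins. Messenger RNAs of ribosomal proteins begin with a 5′ terminal oligopyrimidine (TOP) tract, a C followed by further pyrimidines, through which the mTORC1 kinase pathway adjusts their translation as a group. The colonic epithelium is renewed from stem cells at the crypt base, and growing cells spend much of their transcription and translation on ribosomes.

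To look for the TOP tract at the annotated start, promoters were read from the RefSeq table of build GRCm38.p6, which held 63 of the 83 genes. In 14 of these 63 (22.2%), the annotated start was a C followed by at least 4 pyrimidines, against 3.04% of the 10513 tested genes with a promoter. A run of at least 8 pyrimidines between 20 bases before and 50 bases after the annotated start was found in 48 of 63 (76.2%), against 27.5% of all. The following windows reach from 30 bases before the start to 19 bases after it, 5′ to 3′, with the pyrimidine tract that opens the transcript in capitals. They were taken from those of the 14 that are named again below, and not every such gene is shown.
Rplp2 (chr7:141447621-141447670, plus strand): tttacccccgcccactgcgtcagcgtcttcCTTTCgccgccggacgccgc
Rpl28 (chr7:4792935-4792984, plus strand): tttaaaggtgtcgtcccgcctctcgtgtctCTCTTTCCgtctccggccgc
Rpl38 (chr11:114668550-114668599, plus strand): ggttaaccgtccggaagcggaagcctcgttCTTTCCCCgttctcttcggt
Rps6 (chr4:86857348-86857397, minus strand): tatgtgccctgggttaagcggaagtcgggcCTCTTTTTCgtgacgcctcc
Rps27 (chr3:90213629-90213678, minus strand): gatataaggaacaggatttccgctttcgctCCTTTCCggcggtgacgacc
Rps27rt (chr9:114982720-114982769, minus strand): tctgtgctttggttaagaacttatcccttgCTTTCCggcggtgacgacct

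Over the whole promoters, from 250 bases before to 50 bases after the start and on both strands, the ETS core CGGAAG stood in 43 of 63 (68.3%) against 33.9% of all promoters, and the YY1 core AAGATGG in 10 of 63 (15.9%) against 8.39%. The E-box CACGTG, to which the clock factors CLOCK and BMAL1 can bind, stood in 6 of 63 (9.52%; Rpl13a, Rpl14, Rpl19, Rpl23, Rpl34 and Rps19) against 11.5% of all, and TATAAA in 7 of 63 (11.1%) against 9.17%. Such matches describe the letters of the window and do not show binding.

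The libraries held 14722342 to 25159440 reads over the genes, recovered from the deposited values, with 29 to 769 genes at 0. All 10 epithelial cell markers were present in every library. Markers of other cells differed between libraries of the same time point. The 6 smooth muscle markers summed to 3871 normalised counts in ZT12-1, 236 in ZT12-2 and 7 to 94 in the other libraries, with Acta2, Actg2, Cnn1, Des and Synm at 0 in at least 1 library, and the 6 fibroblast markers summed to 2329 in ZT12-1, 648 in ZT0-2 and 3 to 148 elsewhere. The 8 B and plasma cell markers summed to 3311 in ZT0-2, 1468 in ZT12-1 and 183 to 612 elsewhere, and the 7 T cell markers to 909 in ZT0-2 and 48 to 358 elsewhere. The 7 myeloid markers ranged from 629 to 1943 (ZT0-2) and the 3 endothelial markers in the table from 48 to 410 (ZT12-1). ZT12-1 and ZT0-2 therefore stood apart, and the part of these cells in the values below was not tested. In bulk samples, fewer cells of a type and less RNA per cell cannot be told apart.

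The ribosomal protein genes together held 3.996% and 4.009% of the normalised counts in the ZT0 libraries. They held 3.496% and 3.79% (ZT6), 2.62% and 3.79% (ZT12), and 3.95% and 2.94% (ZT18). The lowest and the second lowest share thus came from 1 library each of ZT12 and ZT18, while the other library of either time point lay near those of ZT0 and ZT6. The means were 4.002% ± 0.00924 (ZT0; SD, n = 2), 3.64% ± 0.208 (ZT6), 3.20% ± 0.830 (ZT12) and 3.44% ± 0.713 (ZT18), so that the SD at ZT12 was larger than any difference between the means. The share of the genes of the mitochondrial genome also differed between the libraries, from 6.68% in ZT12-1 and 7.85% in ZT12-2 to 22.2% in ZT18-1, with 9.80% in ZT18-2. Outside these genes, the ribosomal protein genes held 4.55%, 4.999%, 4.33%, 4.70%, 2.80%, 4.11%, 5.07% and 3.26% of the counts in the order of the libraries, and ZT12-1 and ZT18-2 were again the lowest.

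**Figure D1:**
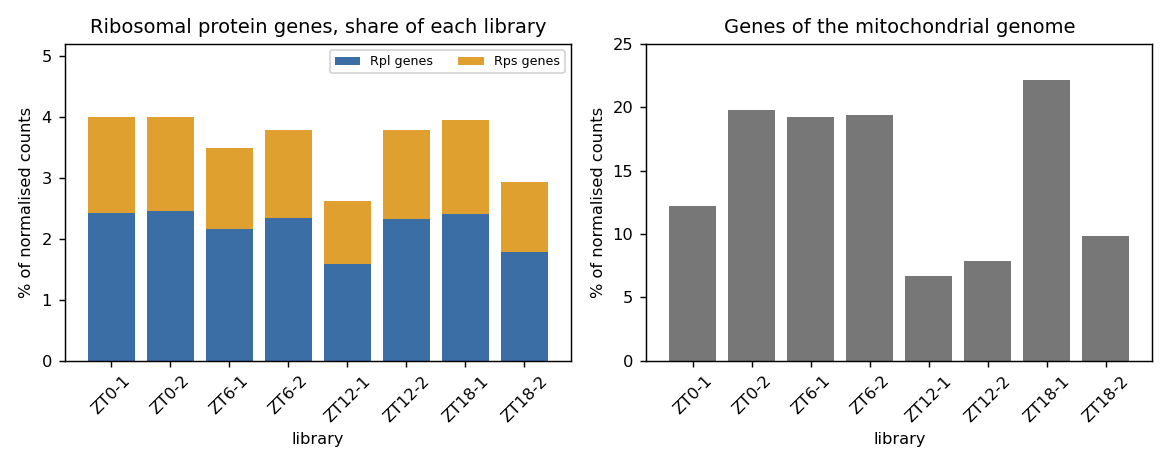
Share of the normalised counts (%) in each of the 8 libraries held by the ribosomal protein genes (left; Rpl and Rps genes stacked) and by genes of the mitochondrial genome (right). The ribosomal protein share was lowest in ZT12-1 (2.62%) and ZT18-2 (2.94%).

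The Rpl and Rps genes moved together. The ratio of their summed normalised counts was 1.55 and 1.57 (ZT0), 1.61 and 1.63 (ZT6), 1.55 and 1.59 (ZT12), and 1.55 and 1.55 (ZT18). It stayed within this narrow range while the family's share ranged from 2.62% to 4.009%, and the ZT6 libraries had the highest ratios.

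Levels of different genes were compared as normalised counts per kilobase (kb) of transcript. The highest were Rpl41, a very short peptide of the large subunit, at 30370.5 per kb, and the stalk protein gene Rplp1 at 29059, followed by Rps2 (20872), Rps12 (20461) and the stalk base gene Rplp0 (19254). The median of the 77 core genes was 10303 per kb, and their 10th and 90th percentiles were 4697 and 17616. Levels were thus of the same order for most core genes, whose proteins stand in equal number in the ribosome.

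The lowest were Rpl23a (130 per kb), the paralogue Rpl22l1 (216), Rps19bp1 (367), the paralogue Rps27rt (457) and Rpl35 (476). Rpl23a and Rpl35 are core genes of the large subunit. Rpl23a (chr11:78180932-78183584, minus strand) held 122, 70.9, 67.8, 65.3, 72.1, 71.5, 59.8 and 54.7 normalised counts in the order of the libraries, and 20 pseudogene transcripts of GENCODE M21 matched its transcript at 95% identity or more over at least 150 bases. Such copies were found for 78 of the 83 genes, with 61 for Rpl21, 39 for Rpl7a, 32 for Rps2 and 31 for Rpl29. The table held 1 pseudogene by its annotation, and how reads that match several copies were counted is not given in the sources used here, so the levels of these genes are uncertain. For Rps20 the annotation held only a coding transcript of 3706 bases, which lowers its value per kb (2066).

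**Figure D2:**
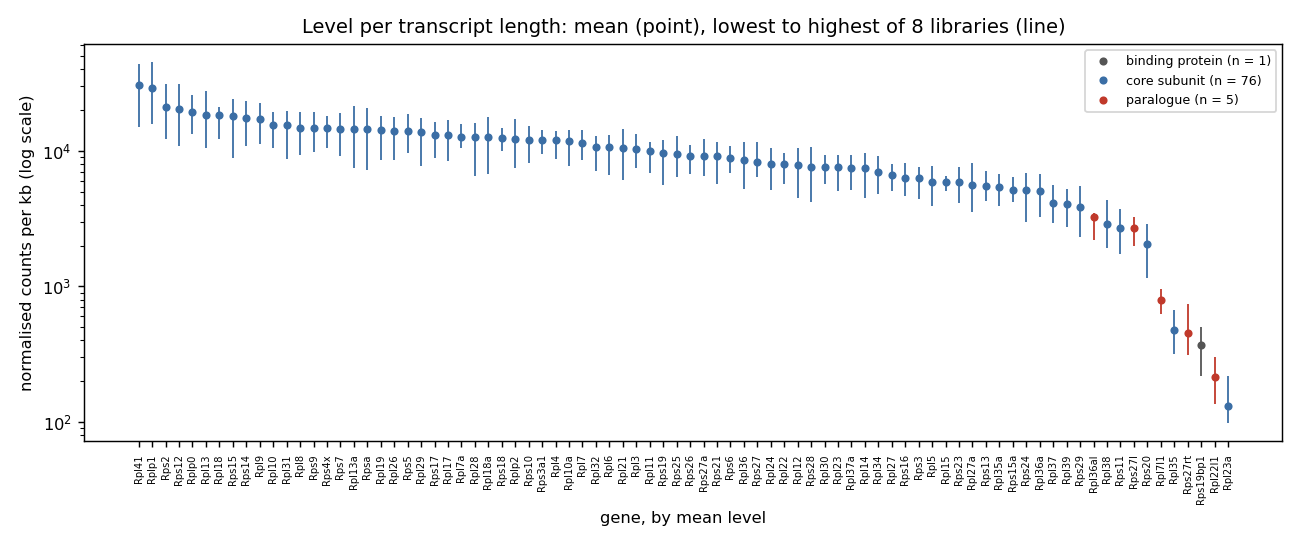
Normalised counts per kb of transcript (log scale) for 82 of the 83 genes, ranked by mean; points are means of the 8 libraries and lines reach from the lowest to the highest library, coloured by kind. Rpl41 and Rplp1 were highest, and Rpl23a, Rpl22l1 and Rps19bp1 were lowest.

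To see how each gene varied, its log2 value in a library was set against its own mean over the 8 libraries. The median deviation of the 83 genes was 0.09 and 0.17 (ZT0), 0.08 and 0.18 (ZT6), -0.54 and 0.03 (ZT12), and 0.37 and -0.37 (ZT18). In ZT12-1, 81 of the 83 genes lay below their own mean, and 68 had their lowest value of all libraries there. In ZT18-1, 82 lay above it, and 57 had their highest value there, while in ZT18-2 81 lay below. The 2 libraries each of ZT12 and ZT18 therefore differed by 0.57 and 0.74 in the family's median, those of ZT0 and ZT6 by 0.08 and 0.10. The summed family was 1.71-fold higher in ZT18-1 than in ZT18-2, and 82 of 83 genes shared that direction. The large and small subunit genes gave nearly the same medians, -0.57 and -0.52 in ZT12-1 and 0.36 and 0.38 in ZT18-1 for the core genes.

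**Figure D3:**
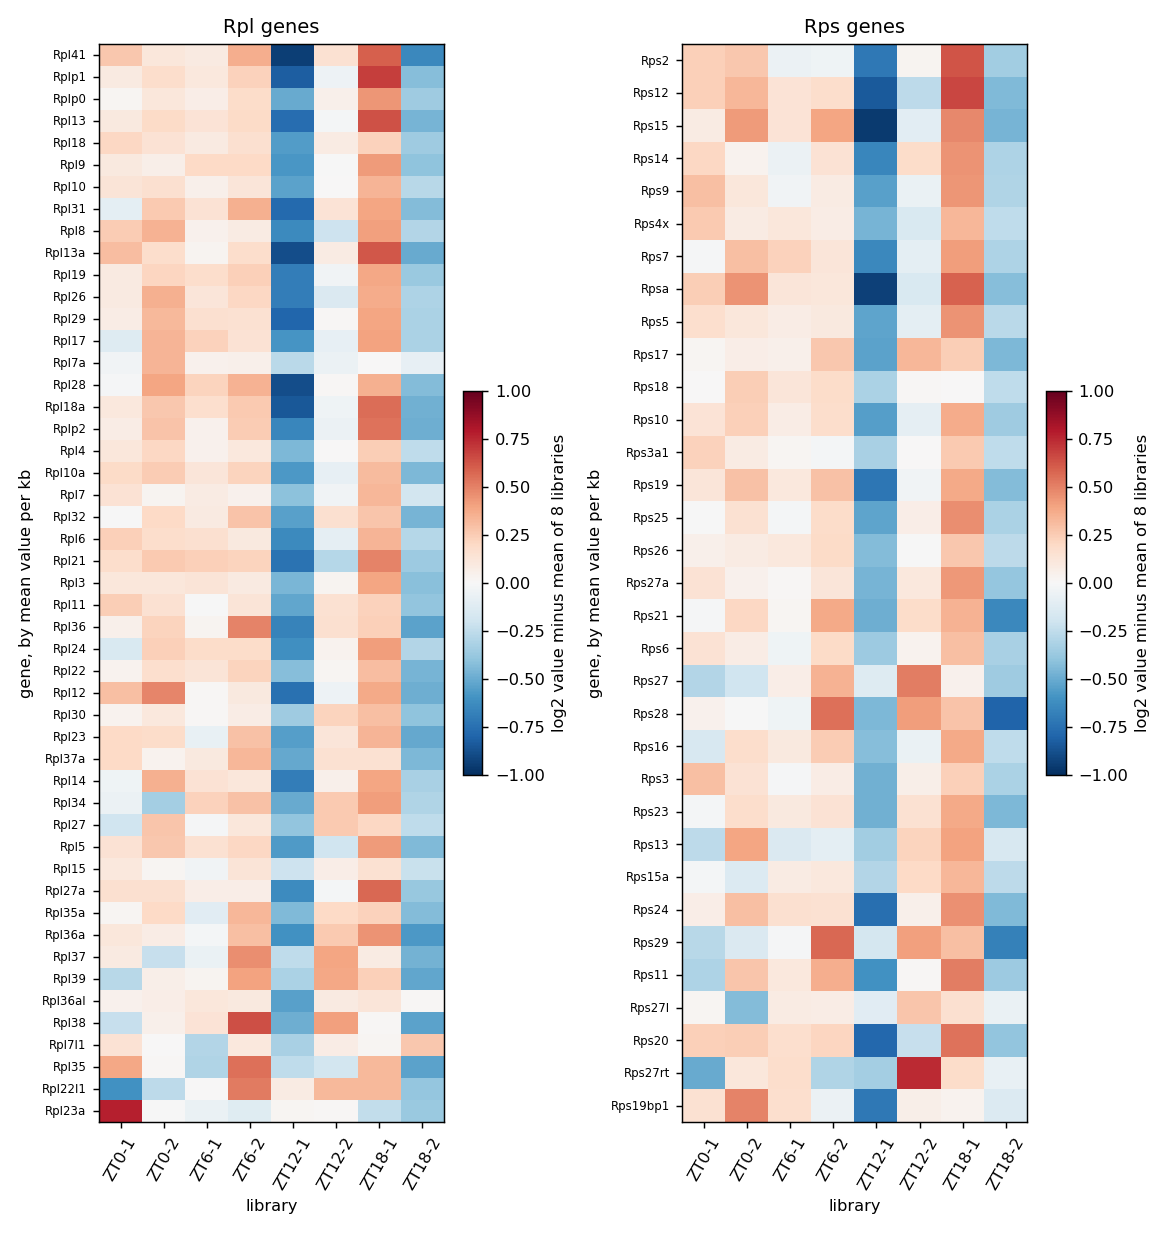
Deviation of 82 of the 83 genes, each from its own 8-library mean (log2, colour), in each library (columns), with Rpl genes on the left and Rps genes on the right, ordered by mean value per kb. Nearly all genes were low in ZT12-1 and ZT18-2 and high in ZT18-1; Rpl23a, Rpl22l1 and Rps27rt departed most from the rest.

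The SD of single libraries within time points was set beside the SD of the time-point means. A mean of 2 libraries varies less than a single library. The within SD is therefore expected to be the larger even without an effect of time, and all genes serve as the yardstick. The median SD over the genes was 0.36 on the log2 scale within a time point and 0.21 between the means of the time points, against 0.29 and 0.23 for all 13503 genes tested. In 80 of the 83 genes the within SD was the larger, against 68.3% of all genes. As the genes moved together, these are not 80 separate observations. When each gene was expressed as a ratio to the family's median in the library, its SD over the 8 libraries was 0.14 (median), against 0.34 before. Rplp0 and Rps10, each with an SD of 0.05, and Rpl10, also 0.05, followed the family most closely, and Rpl23a (0.43), Rpl22l1 (0.43) and Rps27rt (0.43) least.

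The first question of the design was whether these genes cycle over a day. A cosine of 24 h was fitted with limma on log2(value + 1). Of the 83 genes, 0 were called at a Benjamini-Hochberg adjusted p under 0.05, against 0.118% of all genes tested, and 0 had an unadjusted p under 0.05, against 9.15%. By edgeR on the recovered reads 0 were called and 0 had an unadjusted p under 0.05, and by DESeq2 0 and 2. Over all genes edgeR called 12 and DESeq2 189. Shares of all genes, here and below, are those of limma, and shares at an unadjusted p were not taken for the other tools. Of the 13 core clock and clock output genes in the same libraries, 8 were called by the cosine, among them Dbp with an amplitude of 3.07 and a fitted peak at 10.6 h (limma, adjusted p = 4e-05). The clock was thus visible in these libraries, but the amplitude of Dbp lay far above those of the ribosomal protein genes, at most 0.45. Whether a cycle of their size could be called with 2 libraries per time point was not tested. The F-test over the 4 time points called 0 of the 83 (0.0889% of all genes), and 0 had an unadjusted p under 0.05 (7.03% of all).

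The amplitudes of the family were not small in themselves. Their median was 0.23 on the log2 scale, the same as that of all genes (0.23), with a range of 0.03 to 0.45. The largest were those of Rpsa (0.45), Rps12 (0.42), Rps15 (0.41), Rpl12 (0.40) and Rps20 (0.38), and the smallest those of Rps15a (0.03), Rpl27 (0.06) and Rpl15 (0.08). The smallest adjusted p of the cosine was that of Rpl8, at 0.55 (limma, unadjusted p = 0.0508). The fitted peak lay between 18 h and 6 h in 73 of the 83 genes, of which 64 lay between 0 h and 6 h. None of these fits had an unadjusted p under 0.05 by limma, and 68 of the 83 genes had their lowest value in ZT12-1. The peaks are thus not separate observations, and they were not counted over all genes.

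At ZT12 against ZT0, the end of the light phase against its start, the family's median log2 fold change was -0.38, against 0.01 over all genes. At ZT12, 73 genes were lower and 10 higher, against 48.6% lower over all genes. As 68 of the 83 genes had their lowest value in ZT12-1, such counts are not separate observations. None of the 83 was called by limma (0.0667% of all genes), while 7 had an unadjusted p under 0.05 (9.96% of all genes): Rpl8, Rpl12, Rpl21, Rpl26, Rps12, Rps20 and Rpsa. edgeR called 0, with 6 at an unadjusted p under 0.05, and DESeq2 0, with 12. Over all genes these tools called 5 and 135. Both ZT12 libraries lay below both ZT0 libraries for 44 of the 83 genes, against 20.3% of all genes, and above them for 2, Rpl22l1 and Rps27, against 20.7%.

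Rpsa, a protein of the small subunit that is also known as a laminin receptor, held 26033 and 29910.4 normalised counts (ZT0), 23794 and 23670.5 (ZT6), 11476 and 19717 (ZT12), and 32983 and 16303 (ZT18). Its ZT12 libraries lay below those of ZT0 and ZT6, with a log2 fold change of -0.89 ± 0.36 (SE) against ZT0 (limma, adjusted p = 0.48), while its ZT18 libraries lay on both sides. Rps12 of the small subunit held 11358 and 12139 (ZT0), 10584 and 10903 (ZT6), 5388 and 8034 (ZT12), and 15363 and 7093 (ZT18), a log2 fold change of -0.84 ± 0.34 at ZT12 against ZT0 (limma, adjusted p = 0.48). Rpl12, a protein near the stalk, held 11492 and 13073 (ZT0), 9419 and 9995 (ZT6), 5547 and 9016 (ZT12), and 12160.2 and 6663 (ZT18), with a log2 fold change of -0.79 ± 0.31 (limma, adjusted p = 0.47). Its ZT6 libraries also lay below both ZT0 libraries.

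The stalk proteins recruit translation factors to the ribosome. Rplp0 held 25979 and 27755 (ZT0), 26828 and 29164 (ZT6), 18072 and 26579.5 (ZT12), and 34774 and 20027 (ZT18), and Rplp1 held 14769 and 15753, 15002 and 16353, 7863 and 13429, and 22488 and 10345 in the same order. Rplp2 held 5204 and 6007 (ZT0), 5097 and 5891 (ZT6), 3144 and 4742 (ZT12), and 7178 and 3516 (ZT18). All of them were highest in ZT18-1 and lowest in ZT12-1. Their log2 fold changes at ZT12 against ZT0 were -0.29 ± 0.31, -0.57 ± 0.37 and -0.53 ± 0.32 (SE).

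Among members with known further roles, Rpl5 and Rpl11, which bind Mdm2 when free of the ribosome, differed at ZT12 against ZT0 by -0.59 ± 0.28 and -0.39 ± 0.27 on the log2 scale. Rpl5 held 13043 and 14236 (ZT0), 13093 and 13646 (ZT6), 7973 and 10281 (ZT12), and 15859.9 and 8677 (ZT18). Rps6, the protein phosphorylated by the S6 kinases, differed by -0.27 ± 0.24, and held 8488 and 8086 (ZT0), 7454 and 8779 (ZT6), 5969.9 and 7871 (ZT12), and 9454 and 6149 (ZT18). Its ZT12 libraries both lay below those of ZT0, but by less than the difference between the ZT18 libraries. Rps19 and Rps14, whose human genes are linked to anaemias, differed by -0.59 ± 0.30 and -0.36 ± 0.32. Rpl13a differed by -0.65 ± 0.39, Rps3, which also takes part in DNA repair, by -0.44 ± 0.25, and Rpl24 by -0.33 ± 0.29. Rpl38, a gene with a known role in skeletal patterning of the embryo, differed by 0.05 ± 0.32. None of these was called (limma, smallest adjusted p = 0.52).

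Most further members had their extremes in the same libraries as the family. Rpl41 ranged from 6557 (ZT12-1) to 19055 (ZT18-1) normalised counts, Rps2 from 12277 to 31164, Rpl3 from 9996 to 18017, Rpl7 from 9896 to 16559.6, Rpl10 from 8421 to 15463, Rpl36a from 1557 to 3250.2 and the X-linked Rps4x from 10183 to 17683, each with its lowest value in ZT12-1 and its highest in ZT18-1. Rpl39 ranged from 1688 (ZT18-2) to 3204 (ZT6-2) and Rpl35 from 301 to 639 in the same libraries. Of the paralogues, Rpl36al ranged from 1165 (ZT12-1) to 1842 (ZT18-1), Rpl7l1 from 825 (ZT12-1) to 1243 (ZT18-2), Rps27l from 988 (ZT0-2) to 1612 (ZT12-2) and Rps27rt from 116 (ZT0-1) to 277 (ZT12-2). Rps27l and Rps27rt had neither extreme where most of the family had it, and Rpl7l1 shared only the lowest library.

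At ZT12 against ZT6 the family's median was -0.38, against 0.01 over all genes, and 79 of the 83 were lower (49.1% of all). Of the 83, 0 were called (0% of all genes), and 2, Rpl21 and Rps20, had an unadjusted p under 0.05 (6.78% of all). edgeR gave 1 and DESeq2 7 such genes, and both called 0, against 0 and 44 called over all genes. Both ZT12 libraries lay below both ZT6 libraries for 45 genes (22.2% of all genes) and above them for 1, Rpl23a (23.5% of all). The largest differences were those of Rps15 (-0.80 ± 0.35), Rpl21 (-0.74 ± 0.28) and Rpl28 (-0.72 ± 0.34), and the highest were those of Rps27rt (0.26 ± 0.41), Rpl23a (0.11 ± 0.40) and Rps13 (0.06 ± 0.28). This comparison shares the ZT12 libraries with the one before.

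At ZT6 against ZT0 the family's median was 0.00, and 43 genes were higher and 40 lower, against 48.9% lower over all genes. None was called (0.0444% of all genes) and 0 had an unadjusted p under 0.05 (4.13% of all), by limma. By edgeR and DESeq2 these counts were also 0, while over all genes the 2 tools called 5 and 25. The ZT6 libraries lay above both ZT0 libraries for 10 genes (18.9% of all) and below them for 17 (18.7% of all). The 10 were Rpl9, Rpl22l1, Rpl34, Rpl36al, Rpl38, Rps15a, Rps26, Rps27, Rps27l and Rps29. The largest differences upward were those of Rpl22l1 (0.70 ± 0.37), Rps29 (0.49 ± 0.34) and Rpl38 (0.48 ± 0.32), and downward those of Rpl23a (-0.48 ± 0.40), Rpl12 (-0.34 ± 0.31) and Rps2 (-0.31 ± 0.35).

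At ZT18 the spread between its 2 libraries left little to compare. Against ZT0 the median was -0.14, 0 of 83 genes were called (0% of all) and 0 had an unadjusted p under 0.05 (5.02% of all). The libraries did not overlap for 0 genes higher (13.6% of all) and for 3 lower, Rpl23a, Rps18 and Rps19bp1 (13.9% of all). The highest log2 fold changes were those of Rpl22l1 (0.41 ± 0.37), Rpl34 (0.26 ± 0.29) and Rps27rt (0.25 ± 0.41), and the lowest those of Rpl23a (-0.69 ± 0.40), Rpl12 (-0.45 ± 0.31) and Rps19bp1 (-0.37 ± 0.29). Against ZT6 the median was -0.12, 0 genes were called (0.0444% of all) and 0 had an unadjusted p under 0.05 (6.71% of all), with 0 not overlapping upward (19.2% of all) and 5 downward (18.8% of all; Rpl7a, Rpl23a, Rpl38, Rps18 and Rps27). Rpl38 (-0.65 ± 0.32), Rps28 (-0.51 ± 0.38) and Rps29 (-0.47 ± 0.34) had the lowest values, and Rps13 (0.25 ± 0.28), Rpl7l1 (0.24 ± 0.21) and Rps2 (0.19 ± 0.35) the highest. Against ZT12 the median was 0.28, with 72 genes higher and 11 lower, against 52.0% lower over all genes. By limma 0 were called (0.0296% of all) and 0 had an unadjusted p under 0.05 (9.03% of all). DESeq2 gave 5 such genes and edgeR 0. The libraries did not overlap for 0 genes higher (17.8% of all) and 1 lower, Rpl23a (18.7% of all). The 3 highest differences were those of Rps12 (0.67 ± 0.34), Rpsa (0.62 ± 0.36) and Rps20 (0.58 ± 0.30), and the lowest those of Rps27 (-0.35 ± 0.24), Rpl23a (-0.32 ± 0.40) and Rps29 (-0.31 ± 0.34). Without ZT18-1, the family's median at ZT18 was -0.51 against ZT0, -0.51 against ZT6 and -0.094 against ZT12, and without ZT18-2 it was 0.24, 0.23 and 0.62, so that the direction at ZT18 rested on which library was kept.

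**Figure D4:**
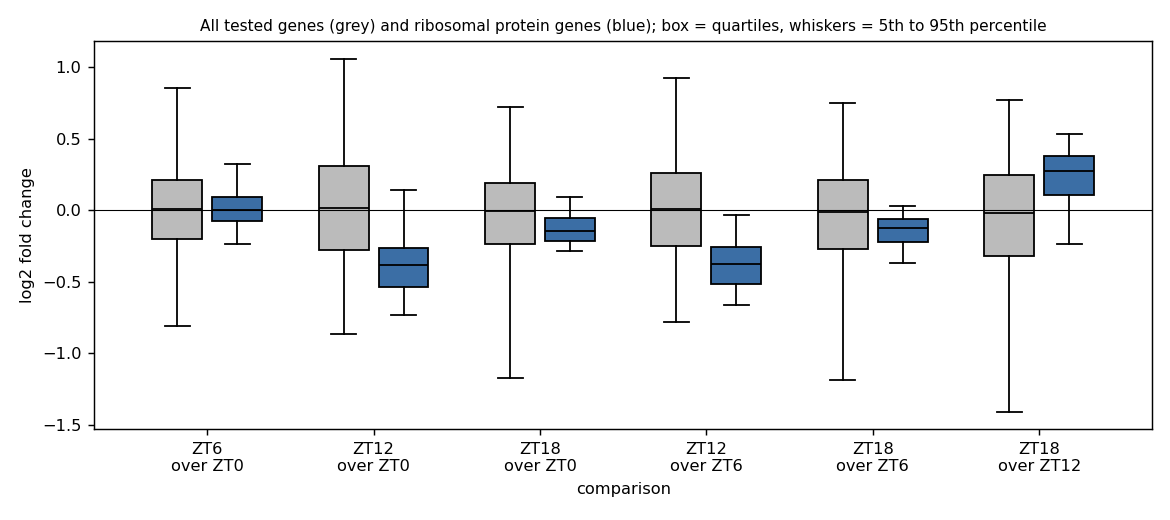
Log2 fold changes of all 13503 tested genes (grey) and of the 83 ribosomal protein genes (blue) in the 6 comparisons of time points; boxes show the quartiles and median, whiskers the 5th to 95th percentile. The family's median was -0.38 in both comparisons of ZT12 with an earlier time point, and 0.28 at ZT18 over ZT12.

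Against both ZT0 and ZT6, the lower values at ZT12 depended on ZT12-1 in size. Without it, the family's median was -0.093 against ZT0 and -0.081 against ZT6, from 1 remaining library. Without ZT12-1 and ZT0-2, the libraries that stood apart by markers, it was -0.062 against ZT0.

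Ribosomal protein genes are short, and length and GC content were checked for that reason. Their median transcript was 681 bases long against 2680 over all genes tested, and 65 of 83 were under 1000 bases, against 9.96% of all. Their median GC content was 51.6% against 50.6%, so as a family they were hardly richer in GC. In ZT12-1, the 372 other genes with transcripts under 600 bases had a median deviation of -0.29, and longer genes outside the family one of 0.04. In ZT18-1 the short genes lay at 0.23 and in ZT18-2 at -0.21, on the same side as the family. Removing a smooth trend with GC content and length from each library left the family's median at -0.27 in ZT12-1, 0.27 in ZT18-1 and -0.24 in ZT18-2, in place of -0.54, 0.37 and -0.37. What of the remainder belongs to the time of day and what to the library cannot be told apart with 2 libraries each.

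**Figure D5:**
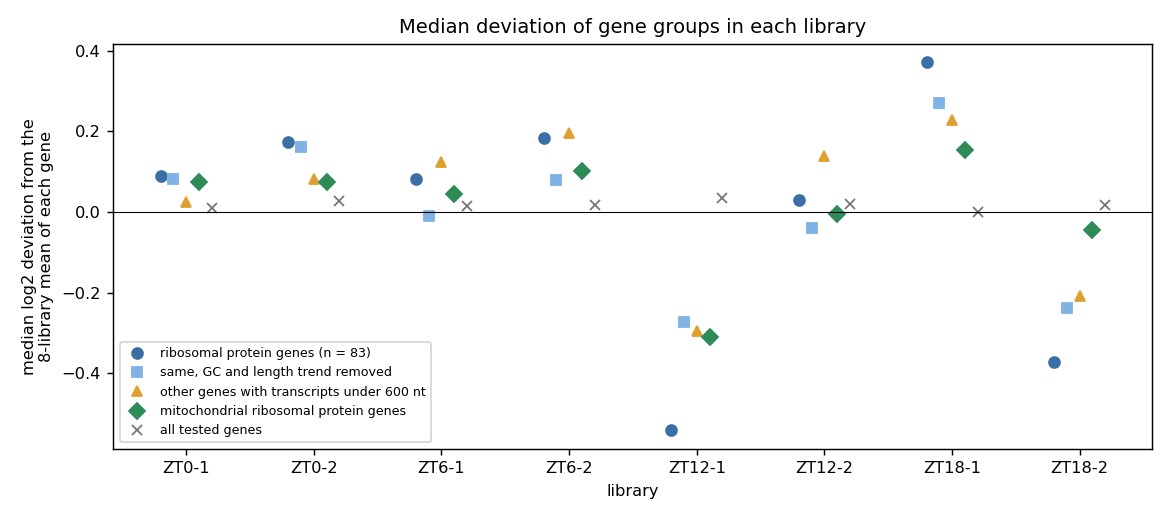
Median log2 deviation from each gene's own 8-library mean, by library, for the ribosomal protein genes before and after removal of the GC and length trend, other genes with transcripts under 600 nt, mitochondrial ribosomal protein genes and all tested genes. The ribosomal protein genes lay at -0.54 in ZT12-1 and the other short genes at -0.29.

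Length and GC content also separated members from each other. The correlation (rho) of the members' deviations with their GC content was 0.14 and 0.36 (ZT0), 0.12 and 0.17 (ZT6). It was -0.46 and -0.24 (ZT12), and 0.21 and -0.14 (ZT18). In ZT6-2 the 32 members under 600 bases had a median of 0.26 and the 51 longer ones 0.15, and in ZT12-2 they had 0.16 and 0.00, whereas in ZT0-1 the short members were lower, at 0.03 against 0.13. Rps27, Rps28, Rps29 and Rpl38, with transcripts of 271 to 390 bases, are among the short members. Rps29 held 1196 and 1305 (ZT0), 1432 and 2155 (ZT6), 1283 and 1927 (ZT12), and 1777 and 903 (ZT18). Rpl38 held 811 and 987 (ZT0), 1049.7 and 1486 (ZT6), 679 and 1265 (ZT12), and 961 and 657 (ZT18). Both were highest in ZT6-2 and lowest in ZT18-2. Rps27 held 2289 and 2446 (ZT0), 2945 and 3562 (ZT6), 2567 and 4006 (ZT12), and 2892 and 2194 (ZT18), and had both ZT12 libraries above both ZT0 libraries, with a log2 fold change of 0.44 ± 0.24 (limma, adjusted p = 0.56).

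Paralogues replace or accompany a parent gene, and a ratio within a library does not depend on its scaling. Such a ratio does not remove a trend with GC content or length, however. The transcript of Rpl22l1 had a GC content of 40.6% and that of Rpl22 one of 47.3%. As given above, the members' correlation with GC content was positive in the ZT0 libraries and negative in the ZT12 libraries. The part of GC content and length in the ratios was not tested. Of 8 pairs examined, 4 had both genes measured; Rpl3l, Rpl10l, Rpl39l and Rps4l were not analysed here. Rpl22l1 held 75.5 and 96.1 normalised counts (ZT0), 116 and 166 (ZT6), 123 and 145 (ZT12), and 145 and 88.5 (ZT18). Its parent Rpl22 held 3809 and 4169, 4051 and 4336, 2764 and 3767, and 4592 and 2694. The log2 ratio of Rpl22l1 to Rpl22 was -5.64 and -5.42 (ZT0), -5.12 and -4.70 (ZT6), -4.48 and -4.69 (ZT12), and -4.97 and -4.91 (ZT18). Both ZT0 libraries were the lowest, and the means of the time points spanned 0.95 with a within-time-point SD of 0.18. The exact permutation test over all assignments of the 8 libraries gave p = 0.0571 (adjusted p = 0.229 over the 4 pairs; smallest p that the design allows 0.00952).

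The other pairs showed no such span. The log2 ratios of Rpl7l1 to Rpl7 had means of -3.67 (ZT0), -3.82 (ZT6), -3.57 (ZT12) and -3.60 (ZT18), with a within SD of 0.31 (exact permutation p = 0.810). Those of Rpl36al to Rpl36a lay at -0.53, -0.52, -0.54 and -0.36, with a within SD of 0.36 (exact permutation p = 1). Those of Rps27l, a gene induced by p53, to Rps27 lay at -1.03, -1.20, -1.19 and -0.87, with a within SD of 0.24 (exact permutation p = 0.533). After adjustment over the 4 pairs, each of these 3 had an adjusted p of 1. Rps19bp1 held 334 and 423 (ZT0), 338 and 288 (ZT6), 183 and 312 (ZT12), and 307 and 273 (ZT18).

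Genes that make or use ribosomes were set beside the family, by lists, with medians at ZT12 against ZT0. None of the 78 mitochondrial ribosomal protein genes was called in any comparison, and their median was -0.24. In ZT12-1 they lay at -0.31 and in ZT18-2 at -0.05, where the cytosolic family lay at -0.54 and -0.37. The 8 elongation factors had a median of -0.27, the 31 initiation factors -0.22 and the 15 further TOP messenger RNA and nascent chain partners -0.17. The 16 genes of the RNA polymerase I machinery, which transcribes ribosomal RNA, had a median of -0.27, the 53 assembly factors -0.16 and the 12 snoRNA host transcripts -0.13, while the 30 tested genes of the mTORC1 pathway and its regulators had a median of 0.09. Without ZT12-1 the median of the mitochondrial ribosomal protein genes was -0.090, that of the initiation factors -0.10 and that of the TOP and nascent chain partners -0.11, while the elongation factors stayed at -0.24, the RNA polymerase I machinery at -0.19, the assembly factors at -0.17 and the snoRNA host transcripts at -0.13. None of the genes of these lists was called by limma in any of the 8 comparisons. The largest differences in these lists were those of Snhg4 at ZT18 against ZT0 (-1.53), Taf1b at ZT18 against ZT6 (-1.09), Snhg17 at ZT18 against ZT6 (-0.97) and Polr1d at ZT12 against ZT6 (-0.94).

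In the annotation, 30 of the 83 genes hold 58 snoRNA genes within their bounds and on the same strand, among them Rpl4 (5) and Rpl13a (4). RNAs of snoRNA genes guide the modification of ribosomal RNA. Rpl4 held 13260 to 21454 normalised counts over the libraries. Small RNAs themselves were not analysed here.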

How the data were processed

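Libraries of colonic epithelial RNA (2 at each of 4 time points) were analysed from 1 table. Per the methods of the study, the authors aligned reads with STAR to GRCm38 and used DESeq2; the read counter, its use of strand and the gene annotation are not given in the sources used here, and labels and methods name different library kits. The deposited signal of each library is the read count of a gene divided by 1 size factor, called the normalised count. The size of 1 read in each library was read off the smallest values, which gave back read counts (100% of values whole, within 0.05 of a read). The 6 columns with the authors' own comparison were not used. The members and gene lists were chosen with earlier results of these data known.

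Genes with a mean of at least 10 normalised counts (13503) were tested with limma 3.58.1 (R 4.3.3) on log2(value + 1), with a mean-variance trend: a 24 h cosine, 6 contrasts and an F-test of all time points, all fitted on the 8 libraries, with Benjamini-Hochberg adjustment over all genes and a threshold of 0.05. The fold changes are on the log2(value + 1) scale, which understates those of low genes. edgeR 4.0.16 and DESeq2 1.42.0 were run on recovered reads as alternatives. Paralogue ratios were tested by exact permutation of the sum of squares between time points, counting assignments with a value at least as large. Scripts were tested on simulated data. Transcript length and GC content came from the shortest complete principal transcript of GENCODE M21, and pseudogene copies from blastn. Genes named in the text were fixed by rule: stalk proteins and Rpsa, members with known further roles, paralogue pairs, the extremes of level, amplitude and contrast, and those whose ratio to the family varied most or least; Rpl8, Rpl26 and Rps28 and the genes of the non-overlap counts were chosen after their values were seen. Alternatives tried were another pseudocount, filters, scalings, a replicate block, a rank test and leaving out libraries. Depth was 14722342 to 25159440 reads, and the part of counting error in the spread between libraries was not estimated. Values of some single genes are not reported here.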

Additional observations from a re-analysis of the deposited data

How the results depend on the processing

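In none of the 24 alternative settings was any of the 83 genes called, over 183 values of the counts for the 8 comparisons. The rank test called 0 of them, but it could call no gene here. Its smallest p was 0.019, and 278 of all genes tested had p under 0.05, too few to pass adjustment over all genes. Its 0 called members therefore says nothing about the processing. Before adjustment, 0 of the members had p under 0.05 within the gene by this test, against 2.06% of all genes tested. With the same replicate numbers taken as a replicate block, the counts of called members stayed at 0. Deviations of the libraries numbered 1 correlated between -0.29 and 0.22 across genes. Libraries of unlike number were not compared in this way, so whether the numbers pair the libraries was not settled. The family's median at ZT12 against ZT0 ranged from -0.66 to -0.093 when 1 library at a time was left out, and against ZT6 from -0.69 to -0.081. At ZT18 it ranged from -0.51 to 0.24 against ZT0, from -0.51 to 0.23 against ZT6 and from -0.094 to 0.62 against ZT12. Scaled to the summed family (an alternative chosen after the data were seen, like the one without ZT12-1 and ZT0-2 and the medians of other gene lists without ZT12-1), the medians at ZT12 were 0.074 against ZT0 and 0.045 against ZT6, with all genes at 0.47 and 0.43. Outside the mitochondrial genome the family's share was 4.77% (ZT0), 4.51% (ZT6), 3.46% (ZT12) and 4.17% (ZT18). Of all counts, leaving out 1 library of ZT12 gave a share of 2.62% or 3.79%. For the ratio of Rpl22l1 to Rpl22, the span of the means was 0.840 to 1.05 when 1 library at a time was left out.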
